A study of Homo sapiens with 33 samples.

Results

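HT29 cells, a human colorectal adenocarcinoma line, were treated for 24 h with an ethanol extract of Sibjeondaebo-tang or of Palmul-tang, and their RNA was sequenced. The comparison described here sets the 3 Sibjeondaebo-tang libraries at 500 µg/mL against the 3 Palmul-tang libraries at 500 µg/mL. These are 6 of the 33 libraries in the series and were taken by the column codes that the labels give for them. The series also holds 3 vehicle libraries (0.1% DMSO in the sample labels, another percentage in the series text). Both extracts were also given at 100 and 20 µg/mL, with 3 libraries each. The remaining libraries are of 2 related extracts, Sagunja-tang and Samul-tang, at 20, 100 and 500 µg/mL with 2 libraries per dose. Those 2 extracts are not compared here and enter only the choice of genes tested, the scaling, the average abundance and the estimate of the spread. No library carried a genetic change or a second agent. The labels do not say whether the 3 libraries of a group came from separate cultures, and p-values therefore cover only the variation among these libraries, part or all of which may be technical.

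Palmul-tang is a traditional tonic formula that joins the herbs of a formula for qi and one for blood, and Sibjeondaebo-tang adds further herbs, among them astragalus root and cinnamon bark, to the same base. Both extracts were given at the same total mass per volume, and the comparison asks what the larger formula did differently at equal extract concentration, and the added herbs and any dilution of the shared ones cannot be told apart by it. Several of the genes described below are known for RNAs that stay in the nucleus. Long noncoding RNAs such as NEAT1 are retained there as scaffolds of nuclear bodies, and many mRNAs, including those of splicing regulators, also exist as forms that keep an intron and are commonly held back in the nucleus or degraded.

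Each Palmul-tang library held 40.5 to 49.1 × 1e6 counts and each Sibjeondaebo-tang library 40.7 to 45.4 × 1e6, and mitochondrial transcripts took 7.42% ± 0.935 and 7.29% ± 0.137 of the counts (SD, n = 3 each). Of 11 colorectal epithelial markers all were detected, with a summed level of 11900 to 12700 CPM (counts scaled to 1e6 per library, with library sizes normalised for composition) with Palmul-tang and 12700 to 13300 CPM with Sibjeondaebo-tang. KRT8, a simple epithelial keratin, led. The part of this small difference in the results below was not tested. The intestinal factors CDX1 and CDX2 were low, at 0.653 to 0.98 and at 3.61 to 4.41 CPM over the 6 libraries. Summed markers of other cell types stayed under 5 CPM. They were 1.75 to 2.47 CPM for 6 fibroblast genes, with PDGFRA at 0, and 3.13 to 4.42 CPM for 5 immune genes, nearly all of it CD14. They were 1.38 to 1.88 CPM for 3 endothelial genes, with CDH5 at 0, and 0.292 to 0.468 CPM for 3 hepatocyte genes. In bulk RNA, fewer cells of a kind and less RNA per cell cannot be told apart.

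At 500 µg/mL, 674 of 17432 genes tested differed between the extracts (3.87% of genes, edgeR quasi-likelihood F test with Benjamini-Hochberg adjustment at 0.05), and the differences were nearly all in 1 direction. With Sibjeondaebo-tang, 613 genes were lower (3.52% of genes) and 61 were higher (0.35%). The falls were also the larger changes: their median size was 0.351 on the log2 scale, and 159 of them passed 0.5, while the median rise was 0.148 and 3 rises passed 0.5. In 612 of the 613 falls and 60 of the 61 rises, every library of one extract lay beyond every library of the other, which held for 25.3% of all genes. The calls come from the same 6 libraries, so this separation is no added evidence. Against vehicle, Sibjeondaebo-tang changed 6904 genes (39.6%, of which 20.5% of all genes were higher and 19.1% lower) and Palmul-tang 5597 (32.1%, 17.3% higher and 14.8% lower). These 2 comparisons share the 3 vehicle libraries with each other and the extract libraries with the direct comparison. For the 613 lower genes the median log2 difference from vehicle was -0.29 with Sibjeondaebo-tang and 0.042 with Palmul-tang, and for the 61 higher genes it was 0.17 and -0.012. Leaving out Palmul-tang replicate 3 lowered the count of called genes from 674 to 435, of which 413 were lower and 22 higher. DESeq2 called 776 genes with a larger part of rises, 184 higher and 592 lower.

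**Figure D1:**
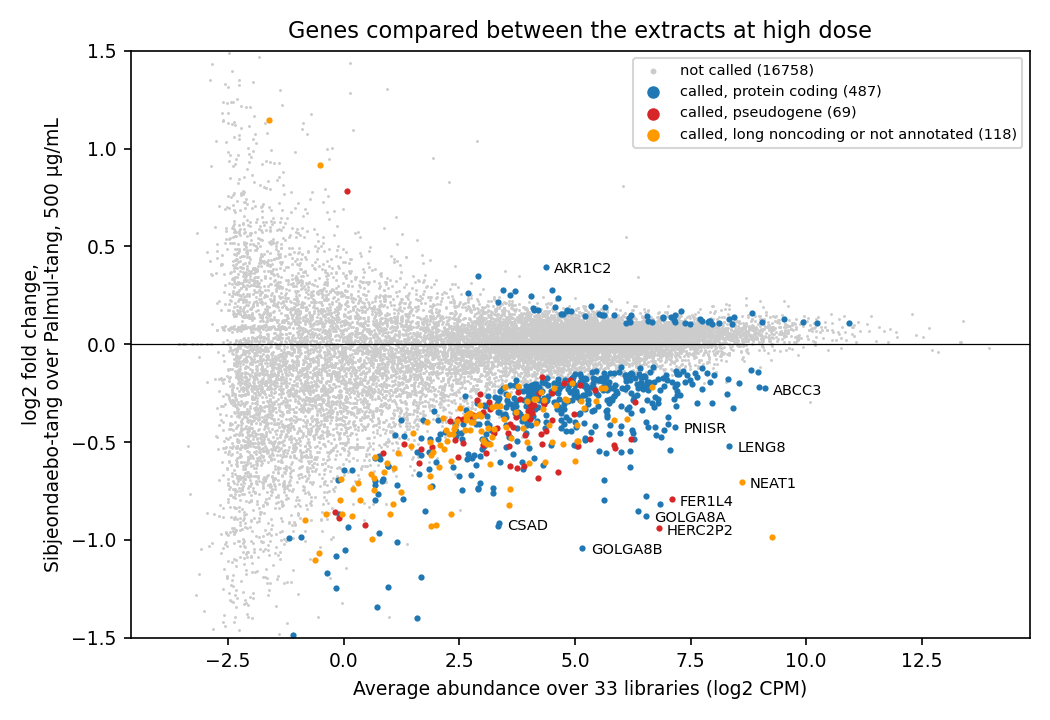
Each point is 1 of 17432 genes, with average abundance in log2 CPM over 33 libraries on the x axis and the log2 fold change of Sibjeondaebo-tang over Palmul-tang at 500 µg/mL on the y axis. Coloured points are the 674 called genes by annotated type, the called points lie mostly below 0 (613 of 674), and 89 genes beyond 1.5 on either side, 2 of them called, are outside the frame.

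Genes and pseudogenes of duplicated segments were among the largest falls. GOLGA8A, a golgin gene (ENSG00000175265, chromosome 15, 34379068 to 34437466 on hg38), stood at 95.9, 92.5 and 91.8 CPM in the 3 Palmul-tang libraries and at 50.1, 51.2 and 51.3 CPM in the Sibjeondaebo-tang libraries. The 6 values form 2 tight and separate groups, and the log2 fold change was -0.88 ± 0.04 (SE, adjusted p = 1.2e-14). Its neighbour GOLGA8B (ENSG00000215252, chromosome 15, 34525207 to 34588503) fell further, by 1.04 ± 0.09 on the log2 scale (adjusted p = 1.3e-08). Its level went from 36.5, 37.3 and 36.3 CPM to 18.4, 15.6 and 19.4 CPM. HERC2P2, a transcribed pseudogene of the ubiquitin ligase gene HERC2 (ENSG00000276550, chromosome 15, 22495570 to 22590815), had 121, 121 and 120 CPM with Palmul-tang and 61.3, 61.0 and 66.1 CPM with Sibjeondaebo-tang. The log2 fold change was -0.94 ± 0.07 (adjusted p = 3.7e-10). All 3 HERC2 pseudogenes tested were lower, as were 6 of 17 NPIP genes on chromosome 16, 3 of 8 genes of the PKD1 family (PKD1 and its pseudogenes) and 2 of 4 GOLGA8 genes, against 3.52% of all genes. These families, like the pseudogenes and noncoding genes named below that the naming rule does not cover, were singled out after their values were seen.

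The copies of such families are so alike that reads could be assigned to the wrong one. Of all 100-base stretches in the annotated transcripts of GOLGA8A, 56.7% also occur in transcripts of another gene, as do 51.9% for GOLGA8B, 55.2% for HERC2P2 and 55.7% for NPIPB11. The size of the change in any 1 copy is therefore uncertain. In the NSUN5 family, which holds an RNA methyltransferase gene and its copies on chromosome 7, the 2 pseudogenes NSUN5P1 and NSUN5P2 fell by 0.48 ± 0.04 and 0.44 ± 0.07 on the log2 scale (adjusted p = 7.3e-09 and 4.6e-05), while NSUN5 itself had a log2 fold change of 0.013 ± 0.06 (adjusted p = 0.94).

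Long noncoding RNAs made up a smaller part of the RNA with Sibjeondaebo-tang: 0.956% ± 0.0229 of counts, against 1.09% ± 0.0153 with Palmul-tang and 1.1% ± 0.00577 with vehicle (SD, n = 3 each). NEAT1, the RNA around which paraspeckles form (ENSG00000245532, chromosome 11, 65422774 to 65445540), had 377, 405 and 410 CPM with Palmul-tang and 217, 253 and 263 CPM with Sibjeondaebo-tang. The groups did not overlap, and the log2 fold change was -0.70 ± 0.10 (adjusted p = 2.4e-05). Vehicle libraries, at 326, 328 and 261 CPM, lay between the extracts, with 1 of them inside the range of Sibjeondaebo-tang. MALAT1, an abundant RNA of nuclear speckles and a close neighbour of NEAT1 on the chromosome, overlapped between the extracts. It had 613, 716 and 656 CPM against 647, 683 and 611 CPM, a log2 fold change of -0.033 ± 0.10 (adjusted p = 0.92). Its sign turned when Sibjeondaebo-tang replicate 3 or Palmul-tang replicate 2 was left out, to 0.0074 and 0.027.

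XIST, the RNA that coats a silenced X chromosome, fell by 0.99 ± 0.09 on the log2 scale (adjusted p = 1.9e-08). FER1L4, a transcribed pseudogene of the ferlin family (chromosome 20, 35558737 to 35607562), fell by 0.79 ± 0.04 (adjusted p = 1.8e-13). It went from 147, 147 and 151 CPM to 83.6, 84.6 and 88.5 CPM. LINC00342 and EOLA2-DT, noncoding genes of low abundance, fell by 0.93 ± 0.12 and 0.87 ± 0.13 on the log2 scale (adjusted p = 9.4e-06 and 5.4e-05). The antisense genes GABPB1-AS1, SLC25A25-AS1 and SLC9A3-AS1 were lower as well, with log2 fold changes of -0.38 ± 0.05, -0.41 ± 0.05 and -0.74 ± 0.09 (adjusted p = 2.6e-06, 1.3e-06 and 6.7e-06). The library kit marked strand, but whether strand was used in counting is not given in the sources used here, so reads of an antisense gene may include some of its partner. Of 548 genes with an antisense suffix 25 were lower, and of 259 named LINC 8 were lower, shares of 4.56% and 3.09% near the 3.52% of all genes. Of 16 hosts of small nucleolar RNAs, which are spliced noncoding RNAs, 2 were lower: SNHG3 by 0.22 ± 0.05 and SNHG20 by 0.32 ± 0.08 on the log2 scale (adjusted p = 0.0055 and 0.014). The call of SNHG3 was lost without Sibjeondaebo-tang replicate 1 or Palmul-tang replicate 2 (adjusted p up to 0.0745). That of SNHG20 was lost without Sibjeondaebo-tang replicate 1 or Palmul-tang replicate 3 (up to 0.118).

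Among the protein-coding genes with the largest falls, one set stood near vehicle or slightly above it with Palmul-tang and well below vehicle with Sibjeondaebo-tang. CSAD, cysteine sulfinic acid decarboxylase, which makes a precursor of taurine (chromosome 12, 53157663 to 53180909), had 9.75, 10.8 and 10.6 CPM with Palmul-tang and 5.07, 5.63 and 5.81 CPM with Sibjeondaebo-tang. All 3 vehicle libraries, at 9.74, 10.2 and 11.4 CPM, lay above the Sibjeondaebo-tang libraries, and the difference between the extracts was -0.92 ± 0.07 on the log2 scale (adjusted p = 2.1e-09). PABPC1L, a relative of the cytoplasmic poly(A)-binding protein, fell by 0.85 ± 0.05 on the log2 scale (adjusted p = 3.0e-11). It went from 87.6, 87.3 and 90.1 CPM to 47.6, 47.3 and 51.8 CPM, with vehicle at 77.8 to 80.3 CPM. With Palmul-tang PABPC1L was above vehicle by 0.15 ± 0.05 (adjusted p = 0.030). CAPN8, a calpain protease known from gastric mucosa, fell by 0.78 ± 0.05 (adjusted p = 2.0e-10). It went from 102, 94.9 and 90.9 CPM to 55.7, 52.8 and 59.1 CPM, with vehicle at 88.7 to 102 CPM. RGL3, a Ral guanine nucleotide exchange factor of the RalGDS family, fell by 0.80 ± 0.09 (adjusted p = 5.0e-07), to 29.5, 29.2 and 29.8 CPM from 49.3 to 53.7 CPM. Vehicle libraries had 44.7 to 55.3 CPM of RGL3.

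In another set, Palmul-tang libraries at 500 µg/mL lay above vehicle and Sibjeondaebo-tang libraries close to it, while at 20 and 100 µg/mL the libraries of both extracts lay above vehicle. With Palmul-tang the means of these genes were no higher at 500 than at 20 µg/mL. The 3 vehicle libraries held 31.1 to 35.6 × 1e6 counts, and mitochondrial transcripts took 10% ± 1.36 of them (SD), against 7.42% with Palmul-tang at 500 µg/mL. Whether the vehicle libraries are offset from the others for a reason beside treatment was not tested. PGGHG, a glucosidase that trims sugars from hydroxylysine of collagen (chromosome 11, 289135 to 296107), had 113, 111 and 117 CPM with Palmul-tang, 59.1, 64.1 and 71.0 CPM with Sibjeondaebo-tang. Vehicle libraries had 67.2, 67.3 and 68.7 CPM. Its log2 difference from vehicle was 0.75 ± 0.07 with Palmul-tang (adjusted p = 4.9e-09) and -0.066 ± 0.07 with Sibjeondaebo-tang (adjusted p = 0.48). The extracts differed by -0.82 ± 0.07 (adjusted p = 4.2e-09). Over 20, 100 and 500 µg/mL, PGGHG averaged 134, 124 and 114 CPM with Palmul-tang and 139, 112 and 64.7 CPM with Sibjeondaebo-tang. The libraries of the 2 extracts overlapped at 20 µg/mL and lay apart at 100 and 500 µg/mL. HSF4, a heat shock factor best known from the lens, had 8.84, 8.79 and 10.2 CPM with Palmul-tang, against 4.79, 5.66 and 6.06 CPM with Sibjeondaebo-tang and 5.41 to 6.01 CPM with vehicle. The extracts differed by -0.76 ± 0.10 (adjusted p = 5.6e-06). KIFC2, a kinesin motor gene, lay in the same order at 500 µg/mL with a difference of -0.93 ± 0.12 (adjusted p = 5.1e-06). It went from 9.75, 10.8 and 11.01 CPM to 4.79, 4.92 and 6.87 CPM, with vehicle at 5.79 to 7.88 CPM. Its means over the 3 rising doses were 10.9, 10.8 and 10.5 CPM with Palmul-tang and 11.4, 9.28 and 5.53 CPM with Sibjeondaebo-tang. PAN2, the catalytic subunit of a poly(A) nuclease, was at 36.2, 36.0 and 37.2 CPM with Palmul-tang, 25.7, 26.1 and 26.3 CPM with Sibjeondaebo-tang and 25.3 to 27.3 CPM with vehicle. The difference was -0.49 ± 0.05 (adjusted p = 3.0e-08). With Sibjeondaebo-tang, PAN2 averaged 41.6, 37.0 and 26.0 CPM and HSF4 10.7, 8.87 and 5.5 CPM over the same doses, against 41.4, 39.7 and 36.5 CPM and 9.91, 10.7 and 9.28 CPM with Palmul-tang. PAN2, like CDK5RAP3 below, was chosen after its values were seen.

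**Figure D2:**
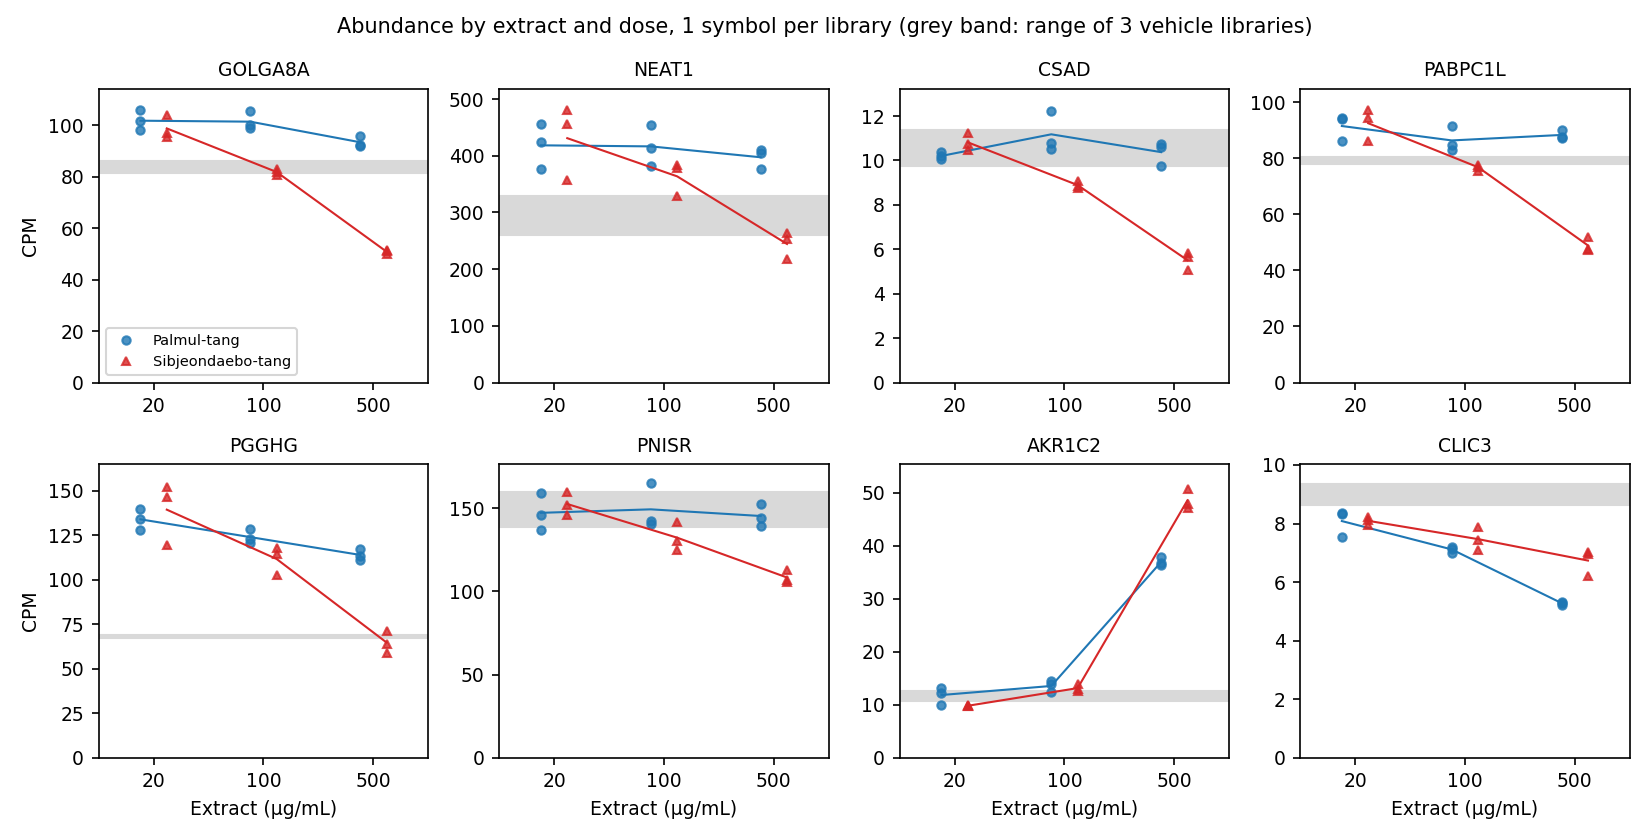
Abundance in CPM (y axis, from 0) of 8 genes against extract concentration (x axis, µg/mL), with 1 symbol per library, lines through the means of 3 libraries and a grey band over the 3 vehicle libraries. At 500 µg/mL the Sibjeondaebo-tang libraries of GOLGA8A (50.1 to 51.3 CPM) lie below those of Palmul-tang (91.8 to 95.9 CPM), AKR1C2 and CLIC3 show the opposite order, and PGGHG with Sibjeondaebo-tang meets the vehicle band.

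Splicing regulators, the factors that choose splice sites and whose own transcripts commonly carry retained introns or poison exons, had the highest share of lower members among the 52 gene lists described: 9 of 23 were lower (39.1%, against 3.52% of all genes) and 0 higher (against 0.35%). Their median log2 fold change was -0.06, against 0.0093 over all genes tested. PNISR, a serine and arginine rich protein, had 139, 144 and 153 CPM with Palmul-tang and 107, 113 and 105 CPM with Sibjeondaebo-tang. Its log2 fold change was -0.42 ± 0.06 (adjusted p = 2.7e-05). CLK2, a kinase that phosphorylates SR proteins, fell by 0.30 ± 0.07 (adjusted p = 0.0053). LUC7L3, a U1 snRNP-associated factor, fell by 0.26 ± 0.04 (adjusted p = 9.4e-05), from 154, 167 and 164 CPM to 132, 134 and 139 CPM. SRSF11, an SR-related protein, fell by 0.20 ± 0.03 (adjusted p = 0.00023). The helicase gene DDX39B, LUC7L, SRSF5, RBM5 and HNRNPH1 made up the 9, with log2 fold changes from -0.18 to -0.14. Classical SR protein genes were divided: SRSF5 was lower, as was SRSF4, which is outside the list and was chosen after its values were seen (-0.16 ± 0.04, adjusted p = 0.0052). SRSF1, SRSF2, SRSF3, SRSF6 and SRSF7 did not pass, with log2 fold changes between -0.045 and 0.12. Neither did CLK1 (-0.11 ± 0.04, adjusted p = 0.12, but 0.024 with GC and length trends removed) or RBM39 (-0.06 ± 0.03, adjusted p = 0.36).

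Several further genes of RNA processing were lower and were chosen after their values were seen. CCNL2, a cyclin that binds splicing kinases, had 135, 130 and 127 CPM with Palmul-tang and 86.6, 87.4 and 95.9 CPM with Sibjeondaebo-tang. Its log2 fold change was -0.54 ± 0.05 (adjusted p = 1.9e-08), while its paralog CCNL1 had -0.10 ± 0.05 (adjusted p = 0.34). LENG8, which has been placed among mRNA export and retention factors, fell by 0.52 ± 0.05 (adjusted p = 3.0e-07). It went from 327, 328 and 344 CPM to 222, 229 and 247 CPM. RSRP1, an arginine and serine rich protein, fell by 0.45 ± 0.05 (adjusted p = 1.8e-07), and ARGLU1, an arginine and glutamate rich splicing coactivator, by 0.37 ± 0.04 (adjusted p = 2.8e-06). In all 4 the 3 libraries of one extract lay apart from the 3 of the other, as in 25.3% of all genes. The choice of the 4 by their values makes this likely.

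Over the whole table, the share of genes lower with Sibjeondaebo-tang depended on what the gene is. Among genes whose average reached 2 on the log2 CPM scale, 3.69% of 10347 protein-coding genes, 19.2% of 400 long noncoding genes and 37% of 135 transcribed pseudogenes were lower. Higher were 0.561% of these protein-coding genes and 0 of the noncoding genes and pseudogenes. That 0 is near the 0.35% of all genes that were higher and sets these types apart from no other. Without that limit the shares were 3.23%, 3.74% and 13.9%. The limit was chosen after seeing the data, and most long noncoding genes are of low abundance, with a median of -0.62 log2 CPM.

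Within protein-coding genes, the share that was lower rose with the number of transcripts that GENCODE annotates as keeping an intron. It was 1.82% of 5779 genes with none, 2.51% with 1, 3.01% with 2, 4.21% with 3 and 7.06% of 2394 genes with 4 or more. In each of 4 bands of abundance the share was lowest with none, higher with at least 1 and highest with 4 or more, a check chosen after seeing the data. Genes with 4 or more are part of those with at least 1, and the finer steps were not checked within bands. Between 4 and 6 log2 CPM, for example, 1.94% of genes with none, 5.26% of those with at least 1 and 8.78% of those with 4 or more were lower. CSAD and KIFC2 have 5 such transcripts each, RGL3 has 7, HSF4 9, PAN2 14 and CDK5RAP3 18. CDK5RAP3 fell by 0.54 ± 0.06 on the log2 scale (adjusted p = 1.3e-06). Other genes that fell have few or none: GOLGA8A and LENG8 have 1 each, and PNISR, PABPC1L and SRSF11 have 0. CCNL1 has 16 and CLK1 8, and neither was called. The counts are per gene and do not separate the forms that keep an intron, so a change in those forms was not tested. The share also rose with the largest number of exons in a transcript, from 1.53% of single-exon genes to 6.73% of genes with over 20 exons, and with GC content, from 2.38% in the lowest to 5.66% in the highest of 5 equal groups. Genes with more exons have more annotated transcripts, and the part of each feature in the other was not tested. With smooth trends on GC content and length removed, 756 genes were called, 645 lower and 111 higher.

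**Figure D3:**
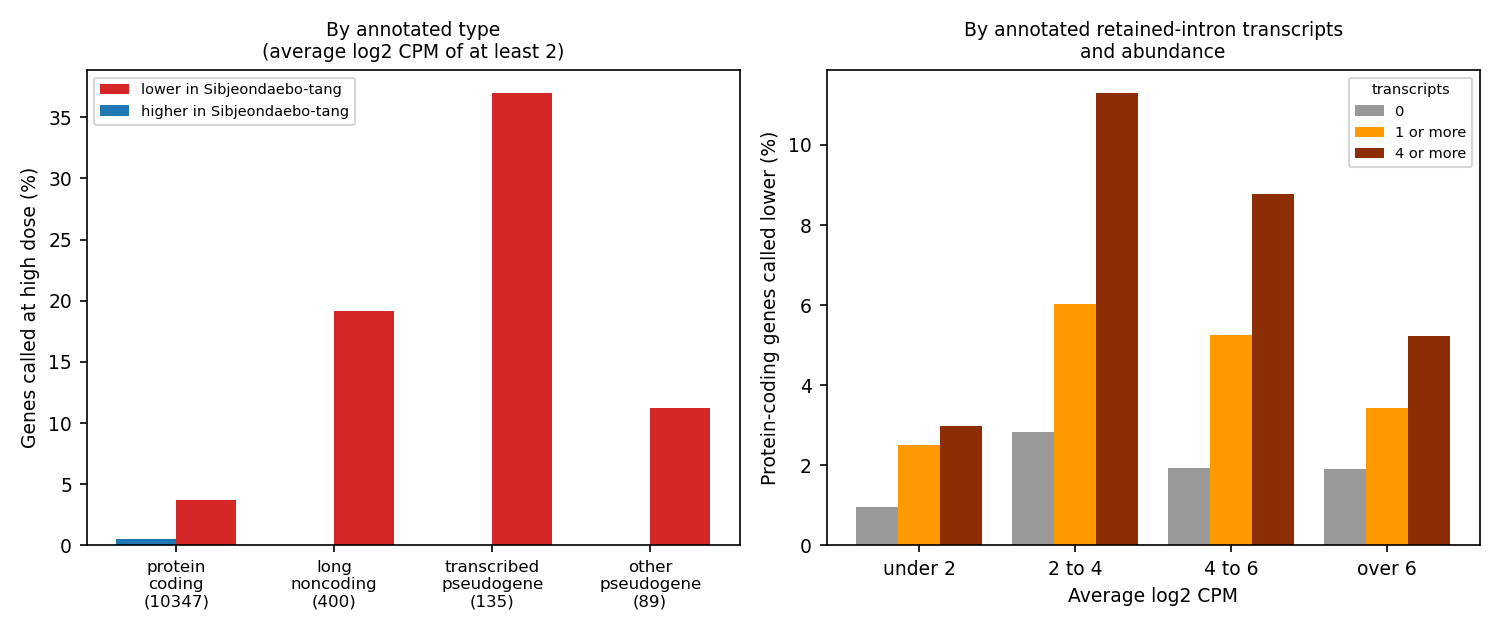
Left, percent of genes called higher or lower in Sibjeondaebo-tang at 500 µg/mL by annotated type among genes averaging 2 log2 CPM or more, with the number of genes in brackets. Right, percent of protein-coding genes called lower by number of annotated retained-intron transcripts within 4 bands of average log2 CPM, in each of which the bar for 4 or more is the highest (11.3% against 2.84% for 0 in the band from 2 to 4).

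The rises were few and small, and the largest among genes of at least 2 log2 CPM was an aldo-keto reductase. AKR1C2, an enzyme that reduces steroids and carbonyls and a target of the oxidative stress factor NRF2, had 37.8, 36.7 and 36.3 CPM with Palmul-tang and 47.1, 47.9 and 50.6 CPM with Sibjeondaebo-tang. Both extracts lay far above vehicle, at 10.7 to 12.7 CPM, and the extracts differed by 0.39 ± 0.06 on the log2 scale (adjusted p = 0.00015). AKR1C1 differed by 0.28 ± 0.07 (adjusted p = 0.019), from 36.6, 35.0 and 34.5 CPM to 44.5, 39.4 and 44.7 CPM. It lost its call in 4 of the 6 fits with 1 library left out, without Sibjeondaebo-tang replicate 1 or 3 or Palmul-tang replicate 2 or 3 (adjusted p up to 0.106). AKR1C3 and AKR1B10, further members of the family, had 0.22 ± 0.12 and 0.089 ± 0.05 (adjusted p = 0.37 and 0.36). AKR1C3 passed without the filter on low counts, with only the groups compared and with the replicate block (adjusted p at most 0.017).

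AKR1C1 and AKR1C2 are neighbours on chromosome 10 (4963253 to 4983283 and 4987400 to 5018031) with nearly the same coding sequence, and the split of reads between them is uncertain. Of 972 coding bases 19 differ, an identity of 98%. The first 240 coding bases in GENCODE 29, given 5′ to 3′ on the coding strand, hold 11 of the 19 differences, which are in capitals:
AKR1C1: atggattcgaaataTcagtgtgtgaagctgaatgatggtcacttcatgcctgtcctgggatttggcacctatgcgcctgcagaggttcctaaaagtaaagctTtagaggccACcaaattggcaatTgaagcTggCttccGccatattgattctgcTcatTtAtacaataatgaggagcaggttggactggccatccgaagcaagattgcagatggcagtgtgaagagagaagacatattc
AKR1C2: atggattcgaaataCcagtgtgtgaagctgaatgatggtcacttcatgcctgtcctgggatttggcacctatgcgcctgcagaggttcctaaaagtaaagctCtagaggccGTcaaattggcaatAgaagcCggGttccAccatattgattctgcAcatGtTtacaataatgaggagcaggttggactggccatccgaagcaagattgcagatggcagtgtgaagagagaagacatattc
Of the 100-base stretches of all annotated transcripts, 16.7% for AKR1C1 and 23.1% for AKR1C2 also occur in another gene.

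CLIC3, a glutathione-dependent member of the chloride intracellular channel family, was the next largest rise and stood below vehicle in both extracts. It had 5.23, 5.30 and 5.32 CPM with Palmul-tang, 7.02, 6.22 and 6.97 CPM with Sibjeondaebo-tang and 8.65 to 9.34 CPM with vehicle. The extracts differed by 0.35 ± 0.07 on the log2 scale (adjusted p = 0.0012). CYB5R4, a cytochrome b5 reductase, had 23.7, 23.0 and 22.6 CPM with Palmul-tang and 26.7, 27.5 and 27.5 CPM with Sibjeondaebo-tang. Its log2 fold change was 0.24 ± 0.05 (adjusted p = 0.0019), and RNF141, a RING finger gene, rose by 0.19 ± 0.04 (adjusted p = 0.0057). COQ5, SARM1, TAMM41, COMMD10, TSPAN5, DHRSX and SUCLG2 were also among the 12 largest rises, at log2 values of 0.20 to 0.28. COQ5 is a methyltransferase of ubiquinone synthesis, SUCLG2 a subunit of succinyl-CoA ligase, TAMM41 an enzyme of mitochondrial lipid synthesis and SARM1 an NAD-cleaving enzyme. Each of these 7 lost its call in 4 or 5 of the 6 fits with 1 library left out, with adjusted p-values of up to 0.25. Their direction was the same in all 6. DHRSX and TAMM41 also lost their calls without the filter on low counts, with only the groups compared, with the replicate block and in DESeq2. COQ5 lost its call with only the groups compared, and COQ5, TAMM41 and COMMD10 with GC and length trends removed.

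Among 44 targets and regulators of NRF2, the factor that drives genes against oxidants and electrophiles, both extracts stood well above vehicle and the differences between them were small. The median log2 difference from vehicle was 0.55 with Sibjeondaebo-tang and 0.48 with Palmul-tang, and 2 members were higher (4.55%, against 0.35% of all genes) and 1 lower (2.27%, against 3.52%) with Sibjeondaebo-tang. The groups did not overlap in 20 of the 44, against 25.3% of all genes. NQO1, the quinone reductase, had 809, 788 and 795 CPM with Palmul-tang and 878, 878 and 885 CPM with Sibjeondaebo-tang. The groups do not overlap, and the log2 fold change of 0.14 ± 0.05 missed the threshold (adjusted p = 0.092). It passed under 4 alternatives, without the filter, with only the groups compared, with the replicate block and in DESeq2 (adjusted p at most 0.034). NQO1, GCLM and HMOX1, and HMGCS1 below, were named for their role after their values were seen. GCLM, for glutathione synthesis, and HMOX1, heme oxygenase, had 0.076 ± 0.04 and -0.038 ± 0.06 (adjusted p = 0.41 and 0.80). ABCC3, an efflux pump for conjugates, was the member that fell. It had 628, 638 and 646 CPM with Palmul-tang and 532, 543 and 560 CPM with Sibjeondaebo-tang. Its log2 fold change was -0.23 ± 0.04 (adjusted p = 0.00059), with vehicle at 463 to 495 CPM.

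Other metabolic lists held 1 to 3 called members each, to be read against 3.52% of all genes lower and 0.35% higher. CYP3A5, a drug-oxidizing cytochrome P450, was the 1 of 23 xenobiotic genes (4.35%) that fell, by 0.21 ± 0.04 on the log2 scale (adjusted p = 0.00031). It went from 91.1, 88.2 and 88.9 CPM to 78.3, 73.5 and 79.6 CPM. ACADVL, which starts mitochondrial oxidation of long fatty acids, fell by 0.18 ± 0.03 (adjusted p = 0.0011) among 25 PPAR and fatty acid oxidation genes, with 214, 205 and 211 CPM against 183, 188 and 184 CPM. VNN1, a pantetheinase, was the other fall of that list (-0.24 ± 0.07, adjusted p = 0.049), and TXNIP, a thioredoxin-binding protein, its 1 rise (0.15 ± 0.04, adjusted p = 0.011). VNN1 lost its call in all 6 fits with 1 library left out (adjusted p 0.0514 to 0.187), and TXNIP without Sibjeondaebo-tang replicate 3 or Palmul-tang replicate 1 (up to 0.0713). The call of VNN1 was also lost with RLE scaling and in DESeq2, and that of TXNIP without the filter on low counts. Of 20 glycolysis genes, ALDOA, aldolase, and LDHA, lactate dehydrogenase, were higher, by 0.11 ± 0.03 each (adjusted p = 0.0495 and 0.0201). ALDOA lost its call in all 6 such fits (up to 0.182), and LDHA in 3, without Sibjeondaebo-tang replicate 3 or Palmul-tang replicate 1 or 2 (up to 0.136). Both calls were also lost without the filter on low counts, with only the groups compared and with the replicate block. LDHA lost its call with GC and length trends removed as well.

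Further single members that passed were of varied function, and 1 lower member in a list of about 20 is near the 3.52% of all genes. VEGFA, the angiogenic growth factor, fell by 0.17 ± 0.04 on the log2 scale (adjusted p = 0.012), from 71.4, 70.8 and 70.0 CPM to 63.0, 64.2 and 60.9 CPM. It lost its call without Sibjeondaebo-tang replicate 3 (adjusted p = 0.0839) and with GC and length trends removed. STAT2, a mediator of interferon signals, fell by 0.24 ± 0.05 (adjusted p = 0.0027) as the 1 of 22 interferon genes (4.55%). CYC1, cytochrome c1, rose by 0.15 ± 0.04 (adjusted p = 0.011) as the 1 of 29 nuclear genes of oxidative phosphorylation (3.45%, against 0.35% of all genes higher). It lost its call without Sibjeondaebo-tang replicate 3 or Palmul-tang replicate 1 (up to 0.0608). TRPV1, a cation channel gated by capsaicin and heat, was the 1 of 5 sensory channel genes (20%) that fell (-0.48 ± 0.12, adjusted p = 0.018), at 2.86, 3.04 and 3.34 CPM against 2.501, 1.84 and 2.29 CPM. It lost its call without Sibjeondaebo-tang replicate 2 or Palmul-tang replicate 3 (up to 0.139), with only the groups compared and with the replicate block. CXCL2, a neutrophil chemokine, was called lower at under 1 CPM in all 6 libraries (-0.99 ± 0.27, adjusted p = 0.036). In 4 of the 6 fits with 1 library left out that call was lost (up to 0.193). The same held without the filter on low counts, with only the groups compared and with the replicate block. ULK1, a kinase that starts autophagy, fell by 0.24 ± 0.06 (adjusted p = 0.022), and CTSD, a lysosomal protease, rose by 0.13 ± 0.04 (adjusted p = 0.04). Each lost its call in 4 of the 6 fits (up to 0.156 and 0.183). The call of ULK1 was also lost with GC and length trends removed, and that of CTSD without the filter and with only the groups compared.

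In all, 36 of the 52 lists had no called member. Among these were 26 genes of cholesterol synthesis and uptake, whose log2 fold changes all lay between 0.021 and 0.20 with a median of 0.095. Others were 20 cytosolic heat shock genes (median 0.043), 23 of the unfolded protein response (median 0.041), 33 ATF4 targets (median 0.049) and 30 mitotic genes (median 0.036). Also without a call were 30 cytosolic ribosomal proteins (median 0.1), 17 goblet and secretory genes (median 0.089) and 17 Wnt targets (median -0.009). HMGCS1, the HMG-CoA synthase of the sterol path, had 208, 194 and 190 CPM with Palmul-tang and 224, 212 and 225 CPM with Sibjeondaebo-tang (0.16 ± 0.06, adjusted p = 0.14). These groups do not overlap, and vehicle was at 249 to 308 CPM. HMGCS1 passed without the filter, with only the groups compared and with the replicate block (adjusted p at most 0.031). Protein-coding genes as a whole had a median of 0.024 and long noncoding genes of -0.16, so medians of a few hundredths above 0 are common to coding lists. The medians of the cholesterol, ribosomal protein and goblet lists lay above that. In these lists the groups did not overlap in 10 of 26, 20 of 30 and 4 of 17 genes, against 25.3% of all genes.

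**Figure D4:**
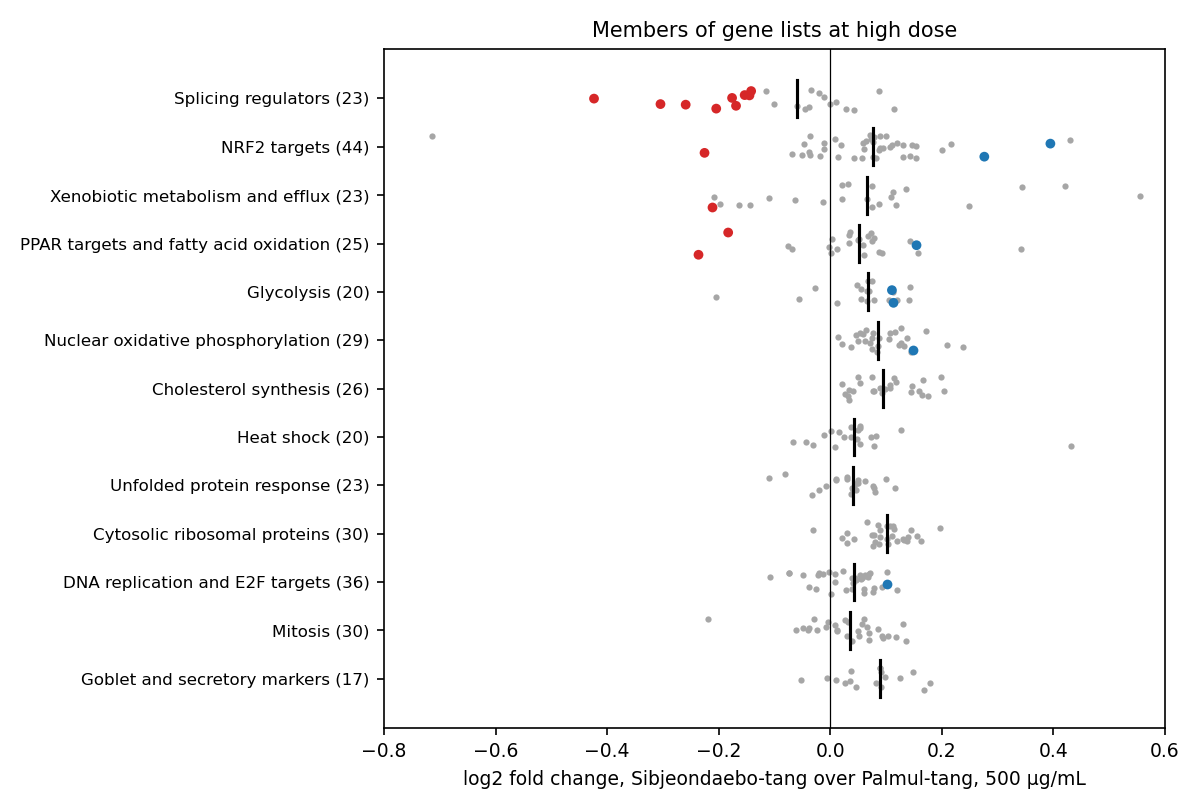
Log2 fold change of Sibjeondaebo-tang over Palmul-tang at 500 µg/mL (x axis) for the tested members of 13 gene lists, with the number of members in brackets. Small grey points were not called, large red and blue points were called lower and higher, black bars are medians, vertical spread within a row is only for legibility, and the row of splicing regulators holds 9 of the red points.

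At 100 µg/mL the same comparison, in 6 other libraries, called 1 gene (0.00574% of genes), GOLGA8A, at -0.31 ± 0.04 on the log2 scale (adjusted p = 0.00024). Its level went from 100, 106 and 98.8 CPM with Palmul-tang to 81.8, 80.7 and 83.0 CPM with Sibjeondaebo-tang. DESeq2 called 2 genes. In edgeR, 1078 genes had an unadjusted p under 0.05. The groups did not overlap in 10.9% of genes at this dose. Of the 613 genes lower at 500 µg/mL, 518 (84.5%) were negative at 100 µg/mL, against 48.9% of all genes, and their median log2 fold change was -0.076. Of the 613, 127 (20.7%) were lower at an unadjusted p under 0.05, against 2.93% of all genes, and 1 was higher, against 3.26%. CSAD, CAPN8 and GARS1-DT had -0.33 ± 0.07, -0.25 ± 0.05 and -0.26 ± 0.05 (adjusted p = 0.202 each). Of the 61 genes higher at 500 µg/mL, 12 were negative at 100 µg/mL, with a median of 0.023.

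At 20 µg/mL, 0 genes were called by edgeR and 0 by DESeq2, and 463 had an unadjusted p under 0.05 in edgeR, and the groups did not overlap in 7.26% of genes. The 613 genes had a median log2 fold change of 0.0037 there, and 47.3% were negative. The mean over the 613 genes, relative to vehicle, was 0.0975, 0.0748 and 0.115 in the Palmul-tang libraries and 0.0661, 0.125 and 0.123 in the Sibjeondaebo-tang libraries at 20 µg/mL, which overlap. At 100 µg/mL it was 0.0522, 0.0774 and 0.104 with Palmul-tang and -0.0067, 0.0086 and -0.010 with Sibjeondaebo-tang, which do not overlap. The difference between the extracts itself differed between 500 and 20 µg/mL in 252 genes (1.45% of genes, edgeR interaction contrast), 247 of them with a more negative value at 500 µg/mL (1.42%) and 5 with a more positive one (0.0287%). GOLGA8B had the most negative of these values among genes of at least 2 log2 CPM, -1.05 ± 0.13 (adjusted p = 8.5e-06), and AKR1C2 the most positive, 0.67 ± 0.10 (adjusted p = 0.00026).

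**Figure D5:**
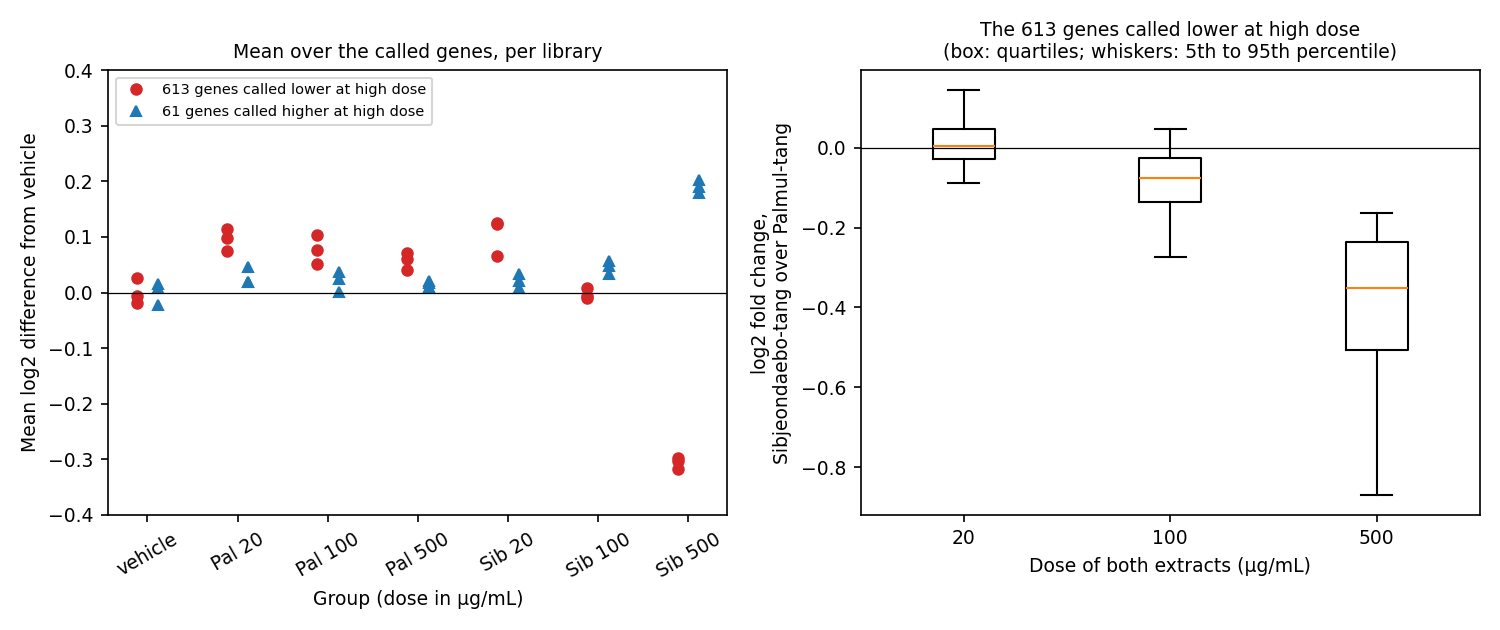
Left, mean log2 difference from vehicle over the 613 genes called lower (red circles) and the 61 called higher (blue triangles) at 500 µg/mL, with 1 symbol per library of vehicle, Palmul-tang (Pal) and Sibjeondaebo-tang (Sib) at each dose in µg/mL. Right, log2 fold change of Sibjeondaebo-tang over Palmul-tang for the 613 genes by dose, with medians of 0.0037, -0.076 and -0.35 at 20, 100 and 500 µg/mL, the last of which the choice of genes fixes.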

How the data were processed

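RNA of HT29 cells was sequenced as paired 100-base reads from a strand-marking kit, per the labels' protocols. The deposited values are expected counts per gene from RSEM 1.3.3 on hg38, with FastQC 0.11.9, Trim Galore 0.6.5 and STAR 2.7.3a also named, per the submitters' processing notes. The annotation, and whether counting used strand, are not given in the sources used here. The expected counts as deposited were rounded (9.45% were not whole), and 240 columns of other samples in the table were not used. Of 60675 genes, 17432 passed filterByExpr (minimum count 10). All 33 libraries entered a 13-group model in edgeR 4.0.16 (limma 3.58.1, R 4.3.3) with TMM scaling and the quasi-likelihood F test, two-sided, with Benjamini-Hochberg adjusted p-values called at 0.05. Each SE is the absolute log2 fold change over the square root of F. Python 3.11.15, pandas 2.3.3, NumPy 2.4.6 and matplotlib 3.10.9 made the tables and plots. Gene types, retained-intron transcripts and sequences came from GENCODE 29 (GRCh38), which held 17312 of the tested genes. The fit was tested on simulated data.

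Named genes were the 12 largest rises and 12 largest falls called, with an average of at least 2 log2 CPM, a standard symbol, no pseudogene and no overlap between groups, and up to 4 called members of each of 52 lists, by smallest p. The list symbols numbered 958, of which 861 were tested. The members and lists were chosen with earlier results of these data known. Other genes were chosen after their values were seen, as the text says. Alternatives were RLE scaling, no filter, only the groups compared, a replicate block, each library left out, GC and length trends removed (mgcv 1.9.3) and DESeq2 1.42.0.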

Additional observations from a re-analysis of the deposited data

Results flagged for a closer look

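The difference between the extracts itself differed between 500 and 20 µg/mL in 252 genes, by the edgeR interaction contrast with Benjamini-Hochberg adjustment. Among the named genes that fell at 500 µg/mL, the value at 500 minus that at 20 µg/mL, on the log2 scale, was -1.05 for GOLGA8B, -1.03 for LINC00342, -1.0 for CSAD, -0.99 for KIFC2, -0.91 each for EOLA2-DT and XIST and -0.87 each for PABPC1L, PGGHG and HSF4. It was -0.85 for RGL3, -0.83 for GOLGA8A and -0.69 for CAPN8. Of the list members, it was -0.48 for PNISR, -0.26 for LUC7L3, -0.26 for ABCC3, -0.23 for SRSF11 and -0.20 for ACADVL. Of the 5 positive values, those of genes named by the rule at 500 µg/mL were 0.67 for AKR1C2 and 0.35 for CLIC3. The others were 0.93 for COL1A1, a gene of low abundance, 0.27 for COIL and 0.15 for SLC16A1. For AKR1C2 the difference between the extracts was negative at 20 µg/mL, -0.28, where it was not called (adjusted p = 1), and positive at 500 µg/mL, 0.39.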

How the results depend on the processing

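At 500 µg/mL every alternative called more lower than higher genes: 681 genes with RLE scaling, 875 without the filter on low counts, 805 with only the groups compared, 834 with the replicate block, 756 with GC and length trends removed, 776 with DESeq2 and 435 to 547 with 1 library left out, of which 435 was without Palmul-tang replicate 3. GC and length were known for 17304 of the 17432 genes. At 100 µg/mL, where 1 gene was called, the counts were 124 without the filter, 3 with only the groups compared, 0 with the replicate block (616 at an unadjusted p under 0.05 in edgeR), 2 with DESeq2 and 1 to 3 with 1 library left out, of which 3 was without Sibjeondaebo-tang replicate 2. At 20 µg/mL, where 0 were called, 90 were called without the filter and 0 in every fit with 1 library left out. The 252 genes of the high-minus-low difference became 473 without the filter, 302 with the replicate block and 170 to 283 with 1 library left out, of which 170 was without Palmul-tang replicate 2. The cause of these shifts was not tested. Without the filter, 33793 genes entered the test.

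Same-numbered libraries had correlations of their deviations of 0.155, 0.117 and -0.0866 at 500 µg/mL, so the numbers were not taken as pairs. Of 94 genes, 67 kept direction and side of the threshold under every alternative, 22 lost a call under at least 1, and 4 (NQO1, HMGCS1, AKR1C3 and CLK1) gained one. MALAT1 was negative in the full data and ranged from -0.084 to 0.027 with 1 library left out, with positive values of 0.0074 and 0.027 without Sibjeondaebo-tang replicate 3 and Palmul-tang replicate 2. Depth limits genes of low abundance most.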
